A study of Mus musculus with 8 samples.

Results

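Granulocyte and monocyte effector genes encode the weapons of phagocytes: granule enzymes and antimicrobial proteins, the oxidase that makes superoxide, and receptors and mediators of inflammation. The set held 35 genes, listed by their known function and without transcription factors, with earlier results of these data known. Of these, 32 were measured, each by the brightest of the probe sets that name that gene alone, out of 18193 genes on the array. Ly6c2, Cd63 and Fpr1 could not be matched to such a probe set and are not reported here. The 32 genes fell into 4 role groups: 7 azurophil granule and early myeloid genes, 13 genes of late granules and secreted antimicrobial proteins, 4 phagocyte oxidase genes and 8 genes of receptors and lipid mediators.

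Granule proteins are made in order as a myeloid progenitor matures. Promyelocytes fill azurophil granules with myeloperoxidase and serine proteases, and myelocytes and later cells make the lactoferrin of specific granules and the gelatinase of the granules that follow. In bone marrow, multipotent cells already carry transcript of some azurophil granule genes, whereas late granule genes are known as products of maturing neutrophils. Transcription factors of the C/EBP family and PU.1 are known to drive many of these genes.

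The cells were Lineagelow Sca1+cKit high cells of C57BL/6 mice, called LSK cells, the bone marrow fraction that holds stem cells and multipotent progenitors. The wild type group had 4 arrays, and the mutant group had 4 arrays of mice with a heterozygous JAK2V617F allele. This allele encodes a constitutively active cytokine receptor kinase known from myeloproliferative neoplasms, and the series title calls its expression physiological. The sources used here do not give age, sex, the way the mutant allele was switched on or any pooling of mice. The comparison, mutant minus wild type, addressed how the mutant kinase changed transcription in these cells, and the number of arrays limits its precision. P-values set the difference between the genotypes against the spread between these arrays within a genotype.

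Values are log2 intensities, so a difference of 1 is a doubling, and the brightness of a probe set cannot be set against that of another gene. Median log2 intensity lay between 7.06 and 7.15 per array over all probe sets, and pairwise correlations lay between 0.991 and 0.996. The gate marker Kit read 12.52 to 12.82 over the 8 arrays and Cd34 read 13.86 to 14.06. The lineage marker Itgam, an integrin chain of mature myeloid cells, read 5.13 to 6.55. Of the other lineage genes measured, Cd8a read 5.9 to 6.5, Cd3e 6.63 to 7.42, Cd4 8.04 to 9.04 and Ptprc 12.40 to 12.72. Absent transcript read up to 5.37 for Eif2s3y, a Y-linked gene, in the 3 arrays where Xist was high, and up to 6.54 for Xist in the other 5. Those 3 were wild type arrays 1 and 2 and mutant array 3, so this female pattern of expression was spread unevenly over the genotypes. No measured member had a mean over the 8 arrays below 7.11, the median over probe sets of their mean. In the wild type arrays alone, however, Mmp9 had a mean of 6.49, under that highest reading of Xist. Mmp8 in wild type array 2 and Fpr2 in wild type array 1 also read under it.

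The upstream sequences of 5 members are shown as examples of where the motif letters lie, and they stand for no role group. These are the 250 bases before the annotated start, from RefSeq on GRCm38.p6, 5′ to 3′ on the strand of the gene. Capitals mark matches, on either strand, to TTGCNNAA, a loose form of the C/EBP site with the bases at N left free, and to GAGGAA, the core bound by PU.1. They were chosen after the values and the matches were seen: 3 late granule genes whose values rank the arrays alike, and the neighbouring protease genes Prtn3 and Elane. Ltf, Ngp and Lcn2 carry the C/EBP match, Elane and Prtn3 carry only the PU.1 match.
Ltf, chr9:111019042-111019291, plus strand: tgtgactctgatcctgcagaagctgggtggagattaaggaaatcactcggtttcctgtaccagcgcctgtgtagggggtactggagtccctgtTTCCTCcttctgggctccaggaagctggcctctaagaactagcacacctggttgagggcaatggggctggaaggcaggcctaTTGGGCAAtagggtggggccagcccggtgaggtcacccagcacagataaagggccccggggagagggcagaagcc
Ngp, chr9:110419558-110419807, plus strand: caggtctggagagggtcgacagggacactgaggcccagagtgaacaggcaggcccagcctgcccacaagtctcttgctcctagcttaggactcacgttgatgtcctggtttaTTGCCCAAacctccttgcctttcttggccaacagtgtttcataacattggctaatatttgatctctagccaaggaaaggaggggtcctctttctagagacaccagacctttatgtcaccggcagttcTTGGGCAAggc
Lcn2, chr2:32387740-32387989, minus strand: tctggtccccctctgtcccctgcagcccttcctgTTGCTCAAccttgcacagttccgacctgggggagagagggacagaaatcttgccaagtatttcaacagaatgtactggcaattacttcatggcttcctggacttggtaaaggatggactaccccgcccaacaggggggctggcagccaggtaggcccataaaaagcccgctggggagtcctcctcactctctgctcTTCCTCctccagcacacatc
Elane, chr10:79886062-79886311, plus strand: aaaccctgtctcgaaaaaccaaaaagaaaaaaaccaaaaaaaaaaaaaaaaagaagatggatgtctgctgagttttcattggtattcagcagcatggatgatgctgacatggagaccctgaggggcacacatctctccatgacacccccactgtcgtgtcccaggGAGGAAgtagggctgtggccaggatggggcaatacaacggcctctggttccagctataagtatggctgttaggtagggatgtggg
Prtn3, chr10:79879417-79879666, plus strand: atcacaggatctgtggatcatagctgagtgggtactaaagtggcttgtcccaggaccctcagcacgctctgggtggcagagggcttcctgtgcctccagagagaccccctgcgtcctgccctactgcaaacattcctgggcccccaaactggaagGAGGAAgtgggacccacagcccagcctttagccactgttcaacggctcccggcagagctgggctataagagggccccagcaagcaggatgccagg

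The C/EBP letters in Ltf begin 75 bases before the start, and in Ngp they begin 138 and 11 bases before it. Over the 28 measured members with an entry, a TTGCNNAA match was found in 6 of 11 late granule genes, in 0 of 7 azurophil granule and early myeloid genes, in 0 of 3 oxidase genes and in 2 of 7 genes of receptors and mediators. The share over all 32851 promoter windows of this length was 9.56%. The 6 were Ltf, Ngp, Lcn2, Mmp8, Fcnb and S100a9, and no such letters were found in the windows of Cd177, Camp, Lyz2, Pglyrp1 and S100a8. GAGGAA was found in 18 of the 28 against 23.3% of all windows, among them 5 of 7 azurophil granule and early myeloid genes and 7 of 7 genes of receptors and mediators. TGTGGT, the core bound by Runx factors, was found in 8 of the 28 against 14.0%. The TTGCNNAA and GAGGAA matches overlapped in 0 member windows. These are matches of letters, not measured sites. Several members also lie close together in the genome. Prtn3 and Elane are direct neighbours, as are S100a8 and S100a9, with 0 protein-coding genes between them, and Camp, Ngp and Ltf follow each other on chromosome 9 with 8 and 20 genes between.

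None of the 32 members passed the threshold of a limma adjusted p under 0.05 over all genes, which 0.165% of all genes did. Mutant cells had the higher mean for 28 of the 32, as for 62.6% of all genes, and the median change of the members was 0.38 against 0.054 over all genes. For 12 members the unadjusted limma p was under 0.05, and all 12 were higher in mutant cells. Of all genes, 11.9% had such a p and were higher, and 5.23% had such a p and were lower. The 4 mutant arrays lay above all 4 wild type arrays for 2 members, Cst7 and Cybb, which is no larger a share than the 6.82% of all genes for which this was so. The members' spread was wide: the median SD within a genotype was 0.35 over the members and 0.15 over all genes. In these bulk samples, more cells of a kind and more transcript per cell cannot be told apart.

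**Figure D1:**
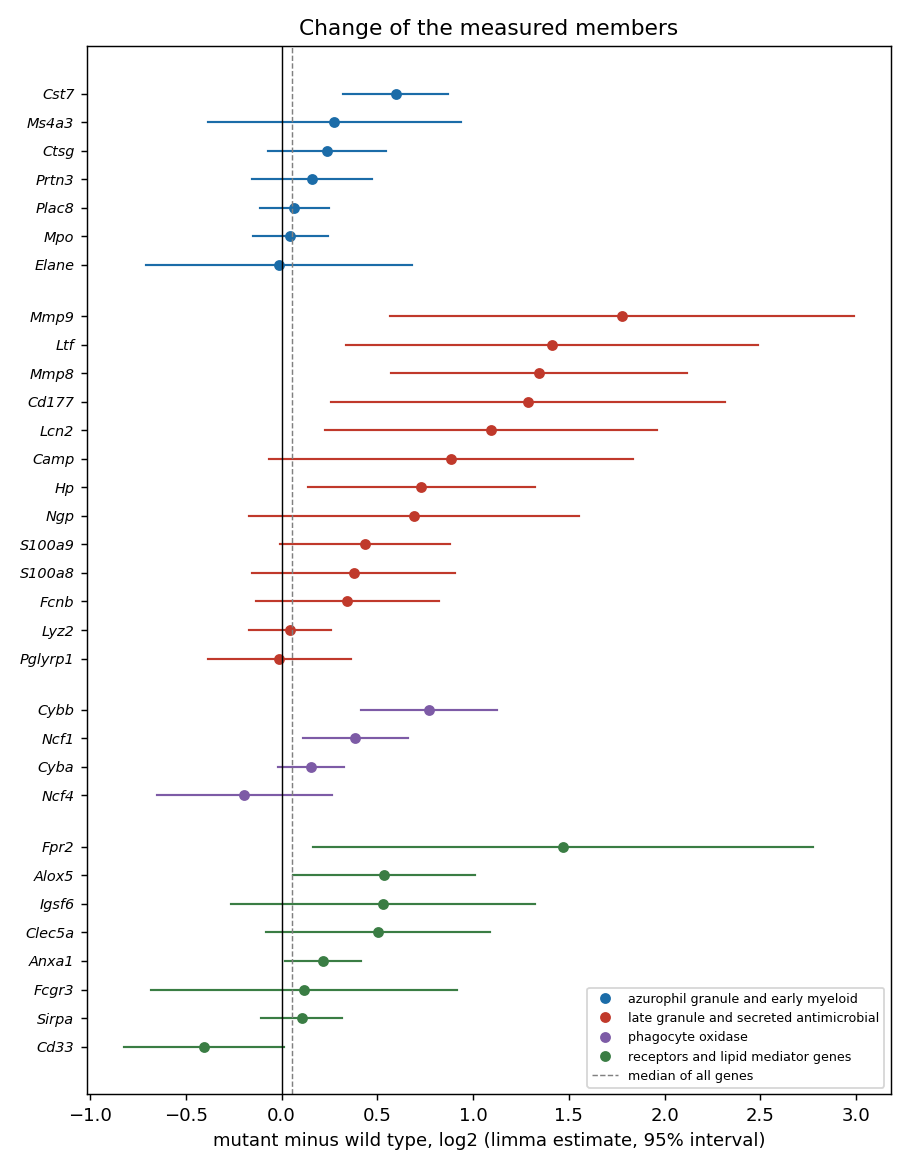
Change of each of the 32 measured members, mutant minus wild type on the log2 scale, with the 95% interval of the limma fit, grouped by role and ordered by size, beside the median of all genes (dashed line). The late granule genes lie between -0.011 and 1.78, while the azurophil granule and early myeloid genes other than Cst7 lie between -0.013 and 0.28.

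Azurophil granule and early myeloid genes had a median change of 0.16, with 6 of 7 above 0. An unadjusted limma p under 0.05 with a higher mutant mean was found for 1 of the 7, and for 11.9% of all genes. Mpo encodes myeloperoxidase, which makes hypochlorous acid in the phagosome. Its log2 intensity was 14.52, 14.67, 14.45 and 14.38 in wild type arrays 1 to 4 and 14.49, 14.49, 14.70 and 14.52 in mutant arrays 1 to 4. The groups overlapped, and mutant array 3 was highest. The change was 0.045 ± 0.086 (SE; limma adjusted p = 0.802), with a 95% interval of -0.15 to 0.24, and without mutant array 3 it was -0.0060.

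Of the granule serine proteases, Ctsg and Prtn3 ranked the arrays in a similar way. Ctsg, cathepsin G, read 14.13, 14.25, 13.80 and 13.85 in the wild type arrays and 14.01, 14.13, 14.48 and 14.36 in the mutant arrays. Prtn3, proteinase 3, read 14.10, 14.08, 13.62 and 13.75 in the wild type and 13.85, 14.02, 14.32 and 14.00 in the mutant arrays. For both, wild type arrays 3 and 4 were the lowest of the 8 and mutant array 3 the highest, and the genotypes overlapped. Their changes were 0.24 ± 0.14 and 0.16 ± 0.14 (SE; limma adjusted p = 0.389 and 0.556). The Prtn3 change dropped to 0.070 with mutant array 3 left out and to 0.071 with wild type array 3 left out. For Elane the lowest array was a mutant one. It encodes neutrophil elastase and spanned 11.73 in mutant array 1 to 13.17 in mutant array 3, a wider range than between the genotype means, and its change was -0.013 ± 0.31 (SE).

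Ms4a3, a membrane protein gene of granulocyte and monocyte progenitors, was also highest in mutant array 3. It read 12.26, 12.69, 12.10 and 11.69 in the wild type and 11.82, 12.22, 13.14 and 12.68 in the mutant arrays, so mutant arrays 1 and 3 stood at opposite ends of their genotype. The change was 0.28 ± 0.29 (SE; limma adjusted p = 0.631), and it was 0.050 without mutant array 3 and 0.49 without mutant array 1. Plac8, a cysteine-rich protein gene of early progenitors, varied little, with 13.95, 14.02, 13.95 and 13.74 in the wild type and 13.93, 13.95, 14.08 and 13.97 in the mutant arrays, and a change of 0.067 ± 0.080 (SE; limma adjusted p = 0.676).

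Cst7 stood apart from the rest of this group. It encodes cystatin F, an inhibitor of the cathepsins that activate granule proteases. Its log2 intensity was 11.14, 11.36, 11.30 and 11.65 in the wild type arrays and 11.76, 11.95, 11.96 and 12.16 in the mutant arrays. The lowest mutant array lay above the highest wild type array. Means were 11.36 ± 0.21 in wild type and 11.96 ± 0.16 in mutant arrays (SD, n = 4 each), a 1.51-fold difference of 0.60 ± 0.12 (SE; limma adjusted p = 0.0929), which was called by limma with a trended robust prior (adjusted p = 0.0481). Its range over each array left out in turn was 0.52 to 0.69.

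**Figure D2:**
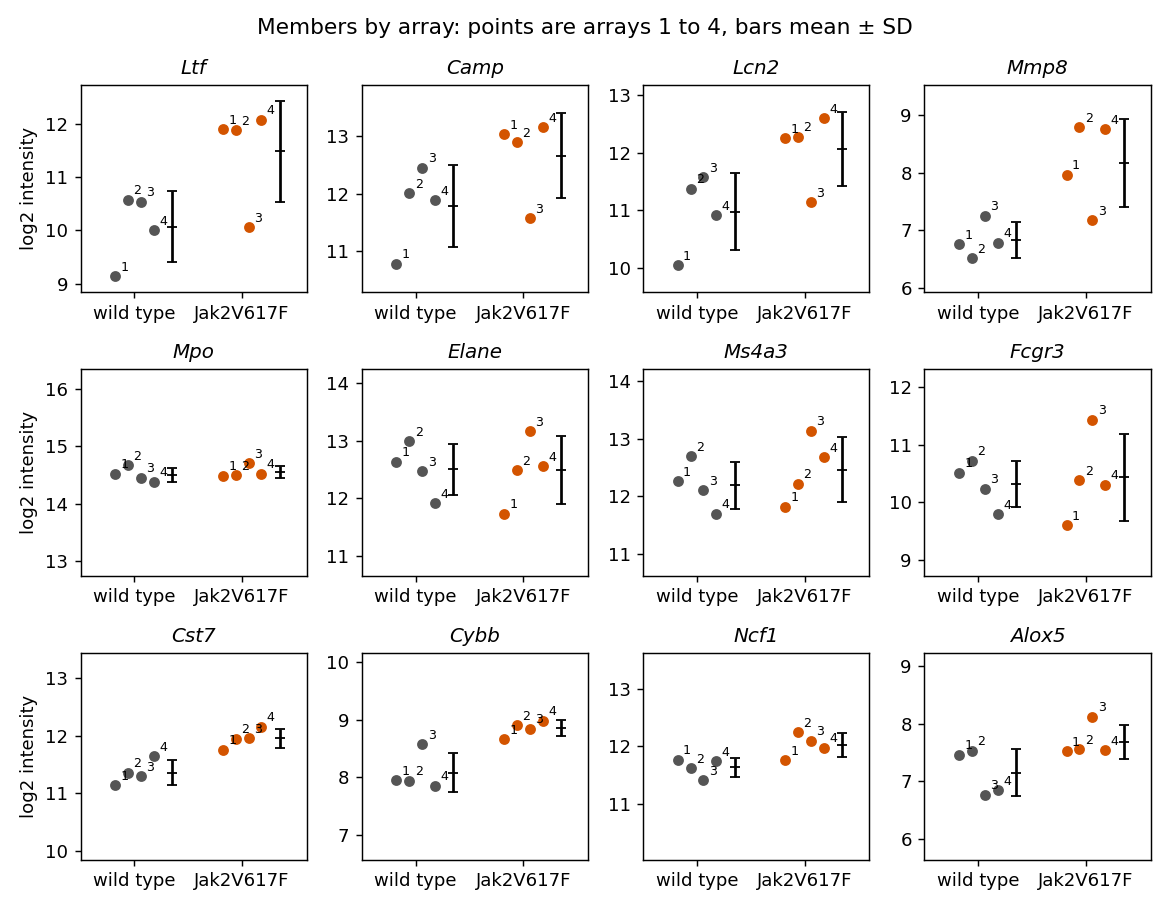
Log2 intensity of 12 members on each array, numbered 1 to 4 within each genotype, with the mean and SD beside the points; all axes are log2 and panels differ in range. In the top row (late granule genes) mutant array 3 lies apart below the 3 other mutant arrays, in the middle row it is the highest array, and in the bottom row the mutant arrays of Cst7 and Cybb lie above every wild type array.

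Late granule and secreted antimicrobial genes had the widest differences. Of 13 measured, 12 were above 0, with a median change of 0.73 and a range of -0.011 to 1.78. An unadjusted limma p under 0.05 with a higher mutant mean was found for 6 of the 13, and for 11.9% of all genes. The 6 were Mmp9, Ltf, Mmp8, Cd177, Lcn2 and Hp. The group mean was 10.71 ± 0.40 in wild type and 11.51 ± 0.47 in mutant arrays (SD, n = 4 each), and the genotypes overlapped through mutant array 3 alone.

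Ltf encodes lactoferrin, the iron-binding protein of specific granules. It read 9.14, 10.58, 10.53 and 10.00 in the wild type arrays and 11.90, 11.87, 10.06 and 12.08 in the mutant arrays. Mutant arrays 1, 2 and 4 were over 1 log2 unit above every wild type array, and mutant array 3 lay within the wild type range. Means were 10.06 ± 0.67 in wild type and 11.48 ± 0.95 in mutant arrays (SD, n = 4 each), a 2.66-fold difference of 1.41 ± 0.48 (SE; limma adjusted p = 0.211).

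Lcn2 encodes lipocalin 2, which withholds iron from bacteria by binding their siderophores. Its values were 10.05, 11.37, 11.57 and 10.92 in the wild type arrays and 12.26, 12.28, 11.14 and 12.60 in the mutant arrays, in nearly the same order as Ltf. The change was 1.09 ± 0.38 (SE; limma adjusted p = 0.222).

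The granule proteases Mmp8, neutrophil collagenase, and Mmp9, gelatinase B, had the smallest p of this group. Mmp8 read 6.76, 6.52, 7.26 and 6.79 in the wild type and 7.97, 8.80, 7.17 and 8.76 in the mutant arrays. Mutant array 3 was again the single mutant array within the wild type range. The change was 1.35 ± 0.34 (SE; limma adjusted p = 0.137), or 2.54-fold. Mmp9 read 5.80, 6.73, 6.99 and 6.43 in the wild type and 8.46, 8.63, 6.57 and 9.41 in the mutant arrays, a change of 1.78 ± 0.54 (SE; limma adjusted p = 0.187). The wild type values lay around the readings of absent transcript, which reached 6.54, so the size of this change is uncertain. The other Mmp9 probe set had 6.81, 6.92, 6.89 and 6.66 in wild type and 7.98, 8.10, 6.57 and 8.45 in mutant arrays, a change of 0.95 ± 0.34 (SE) with mutant array 3 the lowest of all 8. Both genes were called by limma when mutant array 3 was left out, Mmp8 at 1.68 and Mmp9 at 2.34 (adjusted p = 0.0469 and 0.0411).

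S100a8 and S100a9, which pair to form the calcium-binding alarmin calprotectin, differed less. S100a9 read 13.69, 14.34, 14.49 and 14.21 in the wild type and 14.69, 14.74, 14.18 and 14.87 in the mutant arrays, and S100a8 read 12.86, 13.75, 13.83 and 13.38 and 13.99, 14.01, 13.33 and 13.99. Wild type array 1 was the lowest for both, and mutant array 3 was lower than the other mutant arrays. Their changes were 0.43 ± 0.20 and 0.38 ± 0.23 (SE; limma adjusted p = 0.299 and 0.422), and without wild type array 1 they were 0.27 and 0.18. The S100a8 probe set is of a type that can be shared between transcripts.

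Of the 7 remaining late genes, Cd177, Camp, Ngp and Fcnb were lowest in wild type array 1, and mutant array 3 was their lowest mutant array. Changes were 1.29 ± 0.45 for Cd177, a surface protein of neutrophils, 0.88 ± 0.42 for Camp, the cathelicidin precursor, 0.69 ± 0.38 for Ngp, a granule protein related to cathelicidin, and 0.34 ± 0.21 for the lectin gene Fcnb (SE), and over the alternatives they went down to 0.98, 0.55, 0.36 and 0.12. Camp read 10.78 in wild type array 1, 11.57 in mutant array 3 and 12.90 to 13.16 in the other mutant arrays. Hp, haptoglobin, which binds free haemoglobin, differed by 0.73 ± 0.26 (SE), but mutant array 3 was its highest at 12.25, as in the early genes. Lyz2, lysozyme of macrophages and neutrophils, read 13.93, 13.92, 14.14 and 13.87 in the wild type and 13.84, 14.12, 14.14 and 13.94 in the mutant arrays and differed by 0.045 ± 0.094 (SE; limma adjusted p = 0.824). Pglyrp1, a peptidoglycan recognition protein gene, differed by -0.011 ± 0.17 (SE) with a 95% interval of -0.38 to 0.36.

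**Figure D3:**
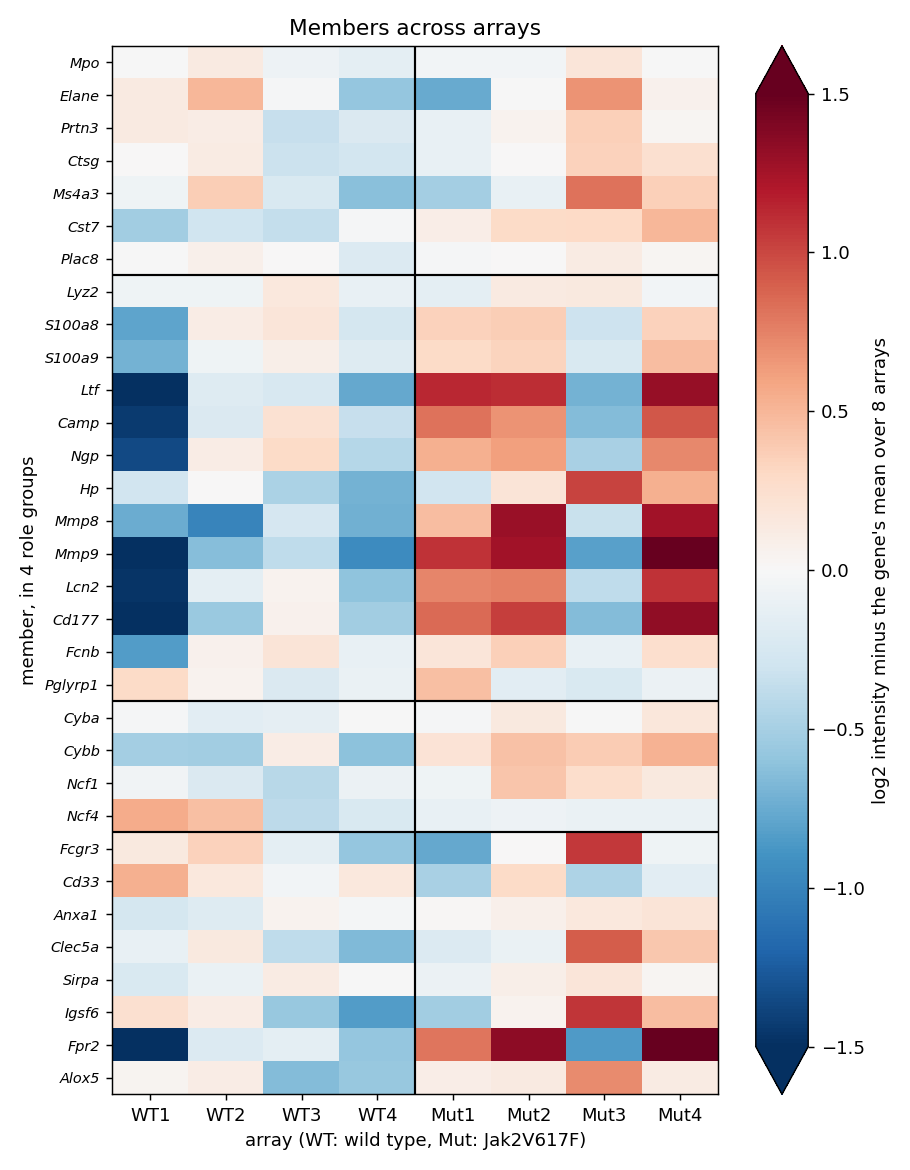
Log2 intensity of each measured member on each array minus that gene's mean over the 8 arrays, with the 4 role groups separated by horizontal lines and the genotypes by the vertical line; the colour scale ends at 1.5 in each direction. Most late granule genes and Fpr2 are low in WT1 and Mut3 and high in Mut1, Mut2 and Mut4, whereas Elane, Ms4a3, Fcgr3, Clec5a, Igsf6 and Hp are highest or near highest in Mut3.

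The arrays thus ranked early and late genes differently. Mutant array 3 was the lowest mutant array for 11 of 13 late granule genes, against 25.1% of all genes, and for 0 of 7 azurophil granule and early myeloid genes. It was the highest of all 8 arrays for 6 of those 7, against 16.7% of all genes, and for 1 of 13 late genes, Hp. Mutant array 1 was the lowest mutant array for 20 of the 32 members, among them 7 of those 7 and 2 of 13 late genes. The share over all genes is not given here for that array. Wild type array 1 was the lowest of the 8 for 9 of 13 late genes, against 11.1% of all genes. These counts describe arrays picked out after their values were seen and carry no test. With mutant array 3 left out, mutant arrays lay above all wild type arrays for 12 of 32 members, 9 of them among the 13 late genes, against 10.7% of all genes. With mutant array 1, 2 or 4 left out the counts were 7, 2 and 2, against 10.1%, 11.7% and 8.28% of all genes. The late group's median change was 0.97 without mutant array 3, and over each of the 8 arrays left out in turn it lay between 0.55 and 0.97.

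Mutant array 3 was also the single mutant array with high Xist. Among the 3 arrays with high Xist, the late group mean was 10.17 and 10.92 in the wild type and 10.82 in the mutant array. Among the 5 others it was 11.09 and 10.66 in the wild type and 11.61, 11.72 and 11.89 in the mutant arrays. The genotypes overlapped in the first set and not in the second. In a fit on those 5 arrays alone, an alternative chosen after the data were seen, Ltf was called at 1.68 (limma adjusted p = 0.0455). With high Xist as a covariate over all 8 arrays the median change of the late group was 0.62. What part sex played in these differences was not tested.

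Genes of the phagocyte oxidase, which passes electrons from NADPH to oxygen, had a median change of 0.27, with 3 of 4 above 0 and 2 with an unadjusted limma p under 0.05. Both were higher in mutant cells, and 11.9% of all genes were higher with such a p. Cybb encodes the catalytic subunit gp91phox. It read 7.95, 7.94, 8.58 and 7.85 in the wild type and 8.67, 8.91, 8.85 and 8.99 in the mutant arrays. All mutant arrays lay above all wild type arrays, and wild type array 3 came closest. Means were 8.08 ± 0.33 in wild type and 8.85 ± 0.14 in mutant arrays (SD, n = 4 each), a 1.71-fold difference of 0.77 ± 0.16 (SE; limma adjusted p = 0.0929). Its other probe sets had changes of 0.82 ± 0.24 and 0.49 ± 0.11 (SE), the first with wild type array 3 at 8.62 and mutant array 1 at 8.37, and the second without overlap. The second read 5.70 to 6.08 in the wild type and 6.24 to 6.65 in the mutant arrays, around the readings of absent transcript, which reached 6.54. Without wild type array 3 Cybb was called by limma at 0.94 (adjusted p = 0.0182).

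Cyba encodes p22phox, the membrane partner of gp91phox. It read 12.58, 12.44, 12.46 and 12.59 in the wild type and 12.58, 12.74, 12.59 and 12.77 in the mutant arrays, a change of 0.15 ± 0.077 (SE; limma adjusted p = 0.34) with overlap between the genotypes. Ncf1 encodes p47phox, the cytosolic organiser of the complex. Its values were 11.77, 11.62, 11.41 and 11.74 in the wild type and 11.76, 12.25, 12.10 and 11.98 in the mutant arrays, and mutant array 1 lay just under the highest wild type array. The change was 0.38 ± 0.12 (SE; limma adjusted p = 0.196), and its other probe sets gave 0.46 ± 0.13 and 0.44 ± 0.15 (SE).

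Ncf4, which encodes p40phox, went the other way in its mean. It read 12.97, 12.87, 12.03 and 12.19 in the wild type and 12.30, 12.34, 12.32 and 12.32 in the mutant arrays. The mutant arrays were almost identical, while wild type arrays 1 and 2, those with high Xist, were above them and wild type arrays 3 and 4 below. The change was -0.19 ± 0.20 (SE; limma adjusted p = 0.624), and it was 0.21 in the fit on the 5 arrays with low Xist. Of the further oxidase genes, 4 were measured, with a median change of 0.070. Hvcn1, the proton channel that balances the charge the oxidase moves, differed by 0.84 ± 0.18 (SE; limma adjusted p = 0.104), whereas the GTPase genes Rac1, Rac2 and Rap1a differed by 0.053, -0.022 and 0.087.

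Among genes of receptors and lipid mediators, 7 of 8 were above 0, with a median change of 0.36, and 3 had an unadjusted limma p under 0.05. All 3 were higher in mutant cells, and 11.9% of all genes were higher with such a p. Fpr2, a formyl peptide receptor that guides phagocytes to bacterial and host signals, read 5.83, 7.63, 7.69 and 7.26 in the wild type and 8.64, 9.18, 6.98 and 9.49 in the mutant arrays. It ranked the arrays much as Ltf did, with wild type array 1 and mutant array 3 low. The change was 1.47 ± 0.58 (SE; limma adjusted p = 0.252).

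Alox5 encodes 5-lipoxygenase, the first enzyme of leukotriene synthesis. Its values were 7.46, 7.53, 6.77 and 6.85 in the wild type and 7.52, 7.56, 8.13 and 7.54 in the mutant arrays. Wild type arrays 3 and 4 were low, wild type arrays 1 and 2 reached the level of mutant arrays 1, 2 and 4, and mutant array 3 was highest. The change was 0.53 ± 0.21 (SE; limma adjusted p = 0.251), and with high Xist as a covariate it was called by limma at 0.70 (adjusted p = 0.0122). Further leukotriene genes differed by 0.027 for Alox5ap, the activating protein of the enzyme, -0.028 for Lta4h, 0.061 for Ltc4s and 0.32 ± 0.094 (SE) for the receptor gene Ltb4r1.

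Anxa1 encodes annexin A1, a phospholipid-binding protein that dampens inflammation in part through formyl peptide receptors. It read 13.29, 13.36, 13.61 and 13.52 in the wild type and 13.57, 13.63, 13.71 and 13.75 in the mutant arrays. Wild type array 3 reached into the mutant range. The change was 0.22 ± 0.088 (SE; limma adjusted p = 0.259), and its other probe set was below 5.37 in every array. Cd33, an inhibitory lectin gene of myeloid cells, was the member with the lowest change. It read 8.45, 8.08, 7.88 and 8.07 in the wild type and 7.44, 8.21, 7.45 and 7.76 in the mutant arrays, and mutant array 2 overlapped the wild type arrays. The change was -0.41 ± 0.19 (SE; limma adjusted p = 0.302).

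Fcgr3, a low-affinity Fc receptor gene used to define granulocyte and monocyte progenitors, spanned 9.61 in mutant array 1 to 11.44 in mutant array 3, and its change was 0.12 ± 0.35 (SE). Clec5a and Igsf6, surface receptor genes of myeloid cells, were also highest in mutant array 3, with changes of 0.50 ± 0.26 and 0.53 ± 0.35 (SE). Sirpa, the inhibitory receptor that reads Cd47, differed by 0.11 ± 0.094 (SE) on its brightest probe set and by 0.49 ± 0.097 and 0.29 ± 0.098 (SE) on its others. On the first of those the mutant arrays, at 8.72, 8.79, 8.65 and 8.91, lay above the wild type arrays, at 8.30, 8.09, 8.30 and 8.44, without overlap, so the probe sets of this gene differed in size.

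Further granulocyte and monocyte genes, of which 30 of 34 were measured, had a median change of 0.062, with 20 above 0. Limma called 0 of them over all genes, and 3 higher and 1 lower had an unadjusted limma p under 0.05. Of all genes, 11.9% were higher and 5.23% lower with such a p. Chil3, a chitinase-like secreted protein gene, read 9.94, 11.43, 11.57 and 10.84 in the wild type and 11.87, 11.89, 11.45 and 11.91 in the mutant arrays, a change of 0.84 ± 0.32 (SE; limma adjusted p = 0.242). Wild type array 1 was lowest, as for late granule genes. The integrin gene Itgb2 differed by 0.29 ± 0.11, without overlap, and Cd14, the endotoxin co-receptor, by -0.99 ± 0.42 (SE). The receptor genes Csf3r and Csf2ra differed by -0.069 and 0.043.

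Of the myeloid transcription factors, 18 of 19 were measured, with 12 above 0 and a median of 0.19. Limma called 0 over all genes, and 7 higher and 1 lower had an unadjusted limma p under 0.05. Of all genes, 11.9% were higher and 5.23% lower with such a p. Id2, which blocks basic helix-loop-helix factors from binding DNA, differed by 0.73 ± 0.16, Batf3 by 0.48 ± 0.15 and Irf4 by -0.86 ± 0.25 (SE; limma adjusted p = 0.105, 0.196 and 0.179). The Batf3 means, 5.95 in wild type and 6.43 in mutant arrays, lay under the highest reading of absent transcript, 6.54, so its size is uncertain. Egr2 read 6.90, 7.90 and 5.82 in mutant arrays 1, 2 and 4, while mutant array 3 and every wild type array lay below 5.37, so no size is given. Its mutant array 4 lay under 6.54, the highest reading of absent transcript. Factors known to bind effector gene promoters differed by 0.24 ± 0.093 for Spi1, which encodes PU.1, 0.46 ± 0.17 for Cebpb, 0.40 ± 0.15 for Cebpd, -0.26 ± 0.20 for Cebpa and 0.15 ± 0.090 for Runx1 (SE). Cebpe was not among the genes analysed here.

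Among lists of other cell types, macrophage and dendritic cell markers and erythroid markers had medians above that of all genes, while B, T and NK cell markers lay near it. Macrophage and dendritic cell markers had 23 of 24 measured genes above 0, with a median of 0.47 and 12 with an unadjusted limma p under 0.05. All 12 were higher in mutant cells, and 11.9% of all genes were higher with such a p. The mean of the list was 8.10, 8.02, 8.16 and 7.79 in the wild type and 8.30, 8.60, 8.68 and 8.44 in the mutant arrays, without overlap. Adgre1, which encodes the defining macrophage antigen F4/80, read 5.92 to 6.58 in the wild type and 6.60 to 7.61 in the mutant arrays. Its wild type values lay around the readings of absent transcript, which reached 6.54. The smallest p were those of H2-Ab1 (0.50), Ciita (0.60), Cd68 (0.44) and Cd74 (1.18).

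Erythroid markers had 15 of 16 measured genes above 0 and a median of 0.54, and their mean was 8.92, 9.22, 9.50 and 8.72 in the wild type and 9.23, 10.25, 9.90 and 9.83 in the mutant arrays. Mutant array 3 was the lowest mutant array for 3 of the 16, Slc4a1, Hbb-b2 and Alas2, and the highest for 8 of the 16, among them Gata1, Rhag, Kel and Ermap. Slc4a1, the anion exchanger, read 9.10, 10.85, 8.34 and 10.13 in mutant arrays 1 to 4 and 6.96, 7.16, 8.12 and 6.90 in the wild type arrays, a change of 2.32 ± 0.51 (SE). Hbb-b2, a beta globin gene, read 11.12, 11.76, 10.31 and 11.55 in the mutant and 8.97, 9.51, 10.34 and 9.22 in the wild type arrays, and Alas2, of haem synthesis, read 6.89, 8.02, 5.56 and 7.75 and 5.54, 5.40, 5.86 and 5.34. Tfrc, the transferrin receptor gene, differed by 0.75 ± 0.12 (SE).

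Mast cell and basophil markers had 8 of 9 genes above 0 and a median of 0.26, with Cpa3 at 0.55, Il4 at 1.10, Mcpt8 at 0.58 and Ms4a2 at 0.44. In the wild type arrays Il4 read 5.16 to 6.27, under the highest reading of absent transcript, 6.54, so the size of its change is uncertain. B, T and NK cell markers had 10 of 15 above 0 and a median of 0.065. LSK gate markers had a median of 0.021, with Cd48 at 0.35, Slamf1 at 0.72, Cd34 at -0.12 and Flt3 at -0.053. Lineage antigens had 2 of 5 genes above 0 and a median of -0.024. Limma called 0 genes of any of these lists over all genes. Those with an unadjusted limma p under 0.05 were 12 macrophage and dendritic cell, 6 erythroid, 4 mast cell and basophil and 2 gate genes. All of them were higher in mutant cells. Such a p was also found for 5 lymphoid genes, 4 higher and 1 lower, and 2 lineage genes, 1 higher and 1 lower. Of all genes, 11.9% were higher and 5.23% lower with such a p. The part that other cell types had in the members' differences was not tested.

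**Figure D4:**
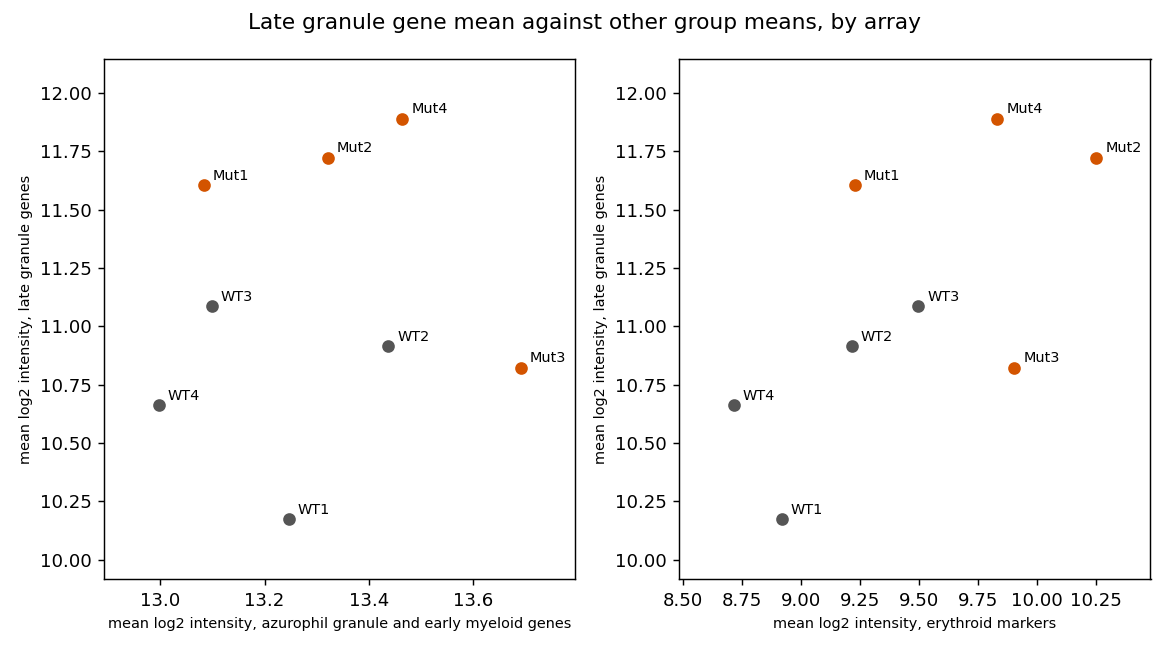
Mean log2 intensity of the 13 late granule genes on each array against the mean of the 7 azurophil granule and early myeloid genes (left) and of the 16 measured erythroid markers (right), with wild type arrays in grey and mutant arrays in orange. Mut1, Mut2 and Mut4 lie highest for late granule genes, while Mut3 has the highest azurophil mean and a late granule mean of 10.82, within the wild type range.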

How the data were processed

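Total RNA of sorted LSK cells was amplified with NuGen Ovation, biotinylated and run on Affymetrix mouse expression arrays, as the protocols in the labels describe. Log2 intensities per probe set were deposited, which the authors made in R 2.11.0 using affy's RMA, as the submitters' processing notes list. Quantile normalisation in RMA would hide a shift shared by most transcripts. The chip definition is not given in the sources used here.

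Of 45101 probe sets, 64 were controls, 34945 were named for 1 gene by the platform annotation, 932 for several and 9160 were not named here. Each gene was represented by its brightest probe set. Differences were tested with limma 3.58.1 in R 4.3.3 over 18193 genes, two-sided, with Benjamini-Hochberg adjustment and a threshold of 0.05, without covariates or a filter. The fit was tested on simulated data.

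Members given in full were up to 4 per role group with the smallest p and the 8 with the highest mean. Further lists gave up to 4 genes by p; other genes of these lists were chosen after their values were seen. The members and lists were chosen with earlier results of these data known. The alternatives tried were a block for the replicate number, centring on array medians, a filter on dim genes, other choices of probe set, a trended robust prior, array weights, high Xist as a covariate, a threshold of 0.1 and each array left out.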

Additional observations from a re-analysis of the deposited data

Results flagged for a closer look

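Each of the 32 members gave a group of 4 arrays in each genotype, 64 groups in all. In 7 of the 64 the highest or lowest array lay far from the nearest of the others relative to the group's range. For a single group chance gives about 1 in 20. The members share the same arrays and many rank them alike, so 7 of 64 cannot be set against that rate. Mutant array 3 was the array in 6 of the 7. It was low for the calprotectin gene S100a8 at 13.33, with the other mutant arrays between 13.99 and 14.01, for Ltf at 10.06, with the nearest at 11.87, for Camp at 11.57, with the nearest at 12.90, and for Ngp at 11.88, with the nearest at 12.91. It was high for Mpo at 14.70, with the nearest at 14.52, and for Alox5 at 8.13, with the nearest at 7.56. For Cybb, wild type array 3 was high at 8.58, with the nearest at 7.95.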

How the results depend on the processing

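The direction of the medians was the same under the 17 alternatives that refit the data for the members as a whole and for each of the 4 role groups, and between 25 and 30 members were above 0. The count of members called by limma, 0 over all 8 arrays, was 1 with a trended robust prior (Cst7), 1 with high Xist as a covariate (Alox5), 2 at a threshold of 0.1 (Cst7 and Cybb) and 1 on the 5 arrays with low Xist (Ltf). Of all genes, limma called 0.412%, 0.33%, 1.09% and 0.121% in these settings, in that order. The count of members was 0 to 2 with each array left out. It was 1 without wild type array 3 (Cybb) and 2 without mutant array 3 (Mmp8 and Mmp9), against 0.0879% and 0.22% of all genes. The count of members with an unadjusted limma p under 0.05 was 7 without mutant array 4, 14 without mutant array 3 and 18 on the 5 arrays with low Xist. All of the 7 and of the 14 were higher in mutant cells, against 8.53% and 11.1% of all genes in those settings. The share over all genes on the 5 arrays is not given here. Without probe sets ending in _s_at, _x_at or _a_at, 29 members were measured, of which 25 were above 0. Cyba, Lcn2 and S100a8 were not measured in that setting, and the oxidase median was 0.38 over 3 genes. With arrays left out the median of the members lay between 0.29 and 0.46, that of azurophil granule and early myeloid genes between 0.05 and 0.24, that of oxidase genes between 0.22 and 0.33 and that of receptors and mediators between 0.23 and 0.49. Signs turned for Mpo without mutant array 3 (-0.0060) and, on the 5 arrays with low Xist, for Ncf4 (0.21) and Lyz2 (-0.038), none of them called by limma. Over the alternatives the change ranged from -0.24 to 0.24 for Elane, -0.16 to 0.23 for Pglyrp1, -0.22 to 0.39 for Fcgr3 and -0.046 to 0.29 for Sirpa. With each array left out it ranged from 0.0081 to 0.10 for Plac8, 0.0027 to 0.10 for Lyz2 and -0.36 to -0.042 for Ncf4. With the replicate block, 0 members were called and the median was 0.38. An unadjusted limma p under 0.05 with a higher mutant mean was found for 11 members and for 10.9% of all genes. Same-numbered arrays correlated at -0.22 to 0.10 in their deviations, and 2 of 8 correlated best with their own number. The labels do not say whether equal numbers mark pairs, and so few arrays cannot settle it. Over all genes 30 were called without the block and 8 with it. The cause of these shifts was not tested.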
